A study of Mus musculus with 14 samples.

Results

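Cyp2e1 and 7 enzymes related to it in substrate or product were followed across 14 libraries of epididymal white adipose tissue (eWAT), the visceral fat pad attached to the epididymis of male mice. The 8 genes were picked by symbol from the 23282 genes of the count table. Cyp2e1 was picked because its level was much lower on the Western diet (WD), so its difference between diets is described here and not tested. The others were picked as enzymes of the same chemistry: Adh1, Aldh2, Aldh1a1, Aldh3a2, Cat, Ces1d and Ces1f. All 8 had counts in every library and passed edgeR's filter on low counts in each comparison given below.

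Wild type C57BL/6J males, 4 weeks old when purchased, received the control diet or the WD for 20 weeks, and total RNA of eWAT was sequenced by QuantSeq, which reads the 3′ end of polyadenylated transcripts. Batch 1 holds 4 control libraries (replicates 1 to 4) and 5 WD libraries (replicates 1 to 5), and batch 2 holds 5 control libraries (replicates 5 to 9). Both diets are present only in batch 1, so diet and batch cannot be told apart when the WD libraries are set against the batch 2 controls. The batch is a prefix of the library names, and what it stands for is not given in the sources used here. Library totals ranged from 10278970 to 13712254 counts, and levels are given in CPM, counts scaled to library size with TMM factors, at which 3 counts correspond to 0.2125 to 0.3193 CPM.

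CYP2E1 is a cytochrome P450 of the endoplasmic reticulum that oxidizes ethanol, acetone and other small molecules, takes its electrons from P450 reductase (Por) and releases reactive oxygen species. Alcohol dehydrogenase and catalase offer other routes from ethanol to acetaldehyde, and aldehyde dehydrogenases turn aldehydes, including those from lipid peroxidation and retinaldehyde, into acids. The carboxylesterases CES1D and CES1F hydrolyze esters, among them stored lipids. Cyp2e1 is best known from the liver and is also expressed by adipocytes.

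The promoter of Cyp2e1 is shown because the level of its transcript varied most among the 8 genes. The 250 bases before the RefSeq start lie at chr7:140763569-140763818 of GRCm38.p6, plus strand, and capitals mark matches to TATAAA and to CCAAT on either strand.
Cyp2e1: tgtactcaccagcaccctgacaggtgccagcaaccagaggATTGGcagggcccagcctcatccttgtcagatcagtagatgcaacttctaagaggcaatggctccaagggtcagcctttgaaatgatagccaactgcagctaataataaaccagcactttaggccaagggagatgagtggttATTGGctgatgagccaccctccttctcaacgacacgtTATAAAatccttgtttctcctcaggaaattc
The TATAAA begins 31 bases before the start, and the CCAAT matches, both of them read on the opposite strand as ATTGG, begin 68 and 210 bases before it. These distances hold for this start only. The deposited table begins the gene at 140763832, and GENCODE M21 begins it at 140763739, within the window. Of the 32851 mouse promoters of the same length, 12.4% hold TATAAA and 33.8% hold CCAAT on either strand. RefSeq gave promoters for 5 of the 8 genes, and neither Adh1, Aldh1a1, Aldh3a2 nor Cat had TATAAA in this window. CCAAT was found in those of Aldh3a2, Cat and Cyp2e1 and in 1 of the 2 promoters of Aldh1a1. These matches are letters in a window and were not tested as sites.

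The deposited table places Cyp2e1 on chromosome 7 (140763832 to 140774977, plus strand), and no other gene of GENCODE M21 overlaps it. The remaining genes lie on chromosome 3 (Adh1), 5 (Aldh2), 19 (Aldh1a1), 11 (Aldh3a2), 2 (Cat) and 8, where Ces1d (93166072 to 93197804) and Ces1f (93256236 to 93279736) both lie on the minus strand. The authors counted multiple as well as unique alignments, so identical stretches of 75 bases, the read length, were sought between each gene's longest transcript and the transcripts of all other genes. Ces1d and Ces1f shared no such stretch with any other gene or with each other, and neither did Adh1, Aldh2, Aldh3a2 or Cat. Aldh1a1 shared 50 of its 2284 stretches with Aldh1a7, a near-identical neighbour in the family, but none of those lay in the last 500 bases from which QuantSeq reads mostly come. Cyp2e1 shared 52 of its 1759 stretches with 11 other genes, and all 52 began 134 to 185 bases from its 3′ end. Reads from that short stretch could be counted at Cyp2e1 from other transcripts, which was not tested. Genes that overlap on the opposite strand are annotated at Adh1, Aldh2 and Aldh1a1, and use of the strand in counting is not given in the sources used here.

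Several libraries stood apart from the rest. Control replicate 1 of batch 1 had a summed level of 46470 CPM for the 11 epididymis markers found, against at most 22.1 CPM in any other library, and a summed level of 6046 CPM for the 12 adipocyte markers, against 33470 to 51930 CPM in the other batch 1 controls. Control replicate 4 of batch 1 had 7999 genes with a count, against 10903 to 13780 in the other libraries. Control replicate 2 of batch 1 had a summed level of 916 CPM for the 9 hepatocyte markers, against 6.63 to 140.5 CPM elsewhere, with Alb at 506 CPM and Apoa1 at 123 CPM. None of the 12 adipocyte markers was at 0 in any library.

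Cyp2e1 was lower in the WD libraries than in every control. In the batch 1 controls its level was 75.9, 684, 851 and 178 CPM for replicates 1 to 4. In the WD libraries it was 14.95, 2.02, 7.02, 7.16 and 63.9 CPM for replicates 1 to 5, resting on 211, 19, 96, 89 and 765 counts. The groups did not overlap, but WD replicate 5 came close to control replicate 1, the library with epididymis RNA. Batch 1 controls averaged 447 ± 378 CPM (SD, n = 4) and WD libraries 19.01 ± 25.5 CPM (SD, n = 5), a 23.5-fold ratio. Its fitted log2 fold change between diets was -4.56 (standard error, SE, 0.96), and 40 of the 12157 genes tested had a lower one. Cyp2e1 was the member whose WD libraries all lay below the batch 1 controls, an arrangement seen for 0.789% of all genes. Taking all 9 controls, 0.221% of genes had every WD library below them, Cyp2e1 among them and none of the other members.

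The batch 2 controls had the highest Cyp2e1 levels of the series. Their values were 1352, 2333, 1512, 1248 and 2188 CPM for replicates 5 to 9, a mean of 1726 ± 499 CPM (SD, n = 5). Every batch 2 control lay above every batch 1 control, so the order of the 3 groups was batch 2 control, batch 1 control and WD, without overlap between neighbours. Against the batch 2 controls the WD mean was 90.8-fold lower, with a log2 fold change of -6.50 (SE 0.75). Without control replicates 1 and 4, which left only control replicates 2 and 3, the batch 1 log2 fold change was -5.33 (SE 0.84).

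**Figure D1:**
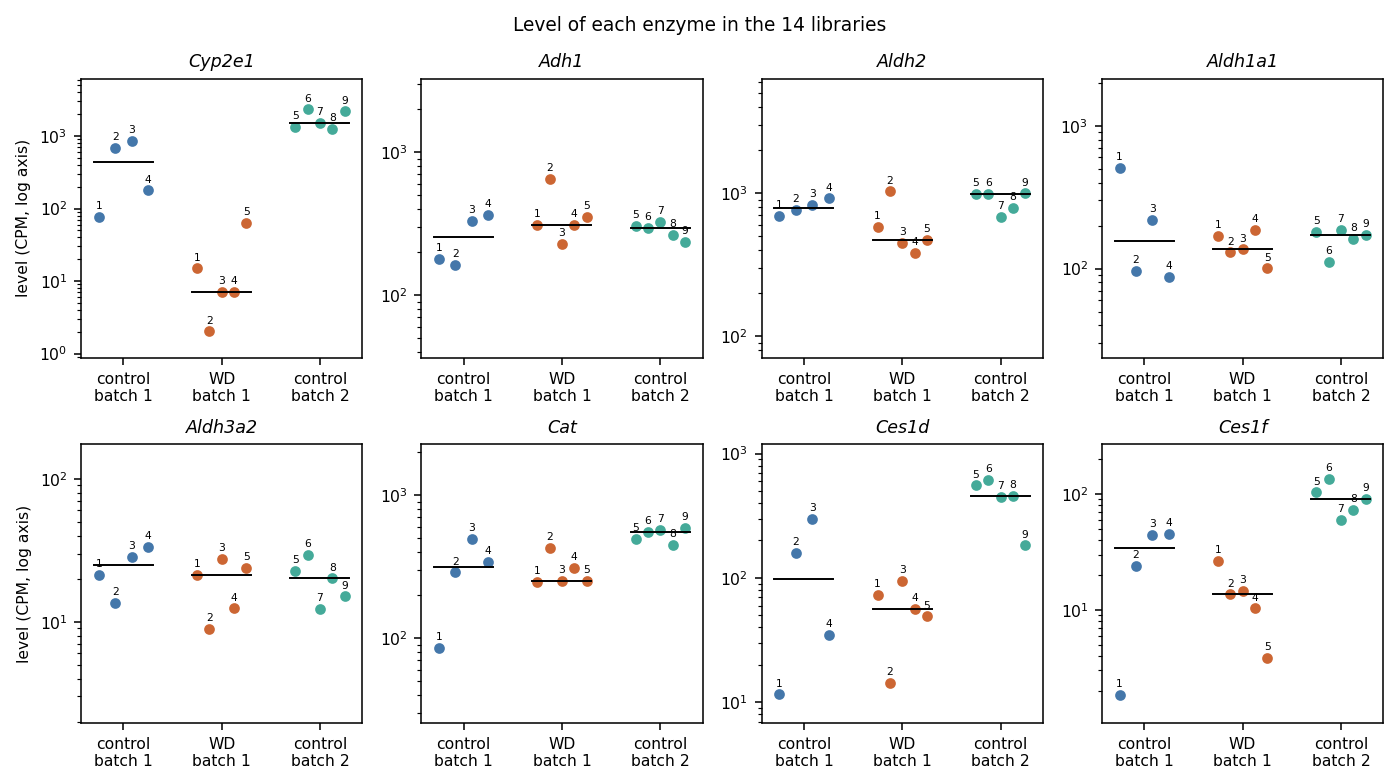
Level of each of the 8 enzymes (CPM, log axis) in the 14 libraries; each point is 1 library with its replicate number, and the horizontal line is the group median. Cyp2e1 fell into 3 separate levels, with WD libraries at 2.02 to 63.9 CPM, batch 1 controls at 75.9 to 851 CPM and batch 2 controls at 1248 to 2333 CPM. Adh1, Aldh2, Aldh1a1 and Aldh3a2 overlapped in all groups.

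In bulk tissue, fewer cells of a type and less RNA per cell cannot be told apart, so Cyp2e1 was also set against adipocyte markers measured in the same library. The summed level of the 12 adipocyte markers, among them Adipoq and Plin1, was 6046 to 51930 CPM in the batch 1 controls, 27080 to 39730 CPM in the WD group and 58320 to 70650 CPM in the batch 2 controls. As a percentage of the CPM of Adipoq, the adiponectin gene, Cyp2e1 stood at 9.53, 9.74, 11.6 and 2.86% in the batch 1 controls. In the WD libraries that percentage was 0.273, 0.0447, 0.164, 0.199 and 1.07%. In the batch 2 controls it was 11.85, 13.8, 13.2, 10.9 and 18.5%. On this scale control replicate 1, low in CPM, stood with replicates 2 and 3, and the WD libraries remained below all 9 controls.

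The mean share was 8.43 ± 3.83% (SD, n = 4) in the batch 1 controls and 0.350 ± 0.411% (SD, n = 5) in the WD group, a 24.05-fold ratio. Relative to the mean log2 level of the 12 markers, Cyp2e1 was lower in the WD group by a log2 difference of -5.03 against the batch 1 controls and of -6.12 against the batch 2 controls. The batch 2 controls were above the batch 1 controls by a log2 difference of 1.09 on that scale, where the fitted difference in CPM was 1.93. The mean log2 level of the 12 markers themselves was 9.57 ± 1.38 (SD, n = 4) in the batch 1 controls, 9.90 ± 0.15 (SD, n = 5) in the WD group and 10.96 ± 0.07 (SD, n = 5) in the batch 2 controls.

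**Figure D2:**
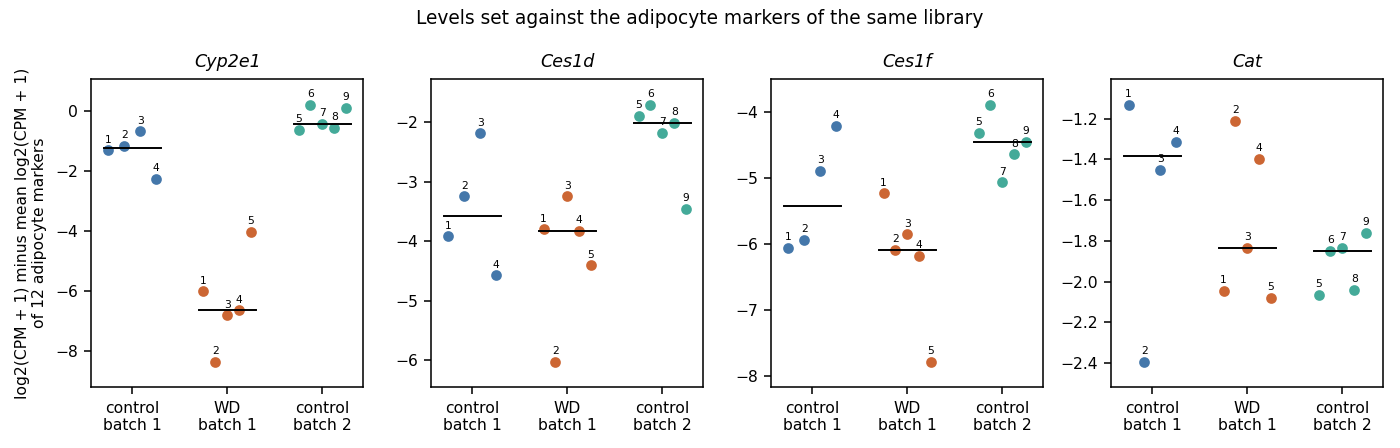
Levels of Cyp2e1, Ces1d, Ces1f and Cat as log2(CPM + 1) minus the mean log2(CPM + 1) of 12 adipocyte markers in the same library; points are libraries with their replicate numbers and lines are medians. For Cyp2e1 the WD libraries lay between -8.36 and -4.03 and all 9 controls between -2.26 and 0.22, while for Ces1d, Ces1f and Cat the WD libraries and the batch 1 controls overlapped.

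Markers of other cells are given beside this difference. The 10 macrophage markers, Adgre1, Cd68 and Itgax among them, summed to 337 to 1855 CPM in the batch 1 controls, 1875 to 3144 CPM in the WD group and 427 to 822 CPM in the batch 2 controls, and none was at 0. All 10 had a positive log2 fold change in batch 1, where 48.2% of all genes were below 0. In edgeR's test 0 of the 10 passed an FDR of 0.05, as did 0.0% of all genes. The part of these markers in the Cyp2e1 difference was not tested. The hepatocyte markers summed to 48.0 to 106.5 CPM in the batch 2 controls, where Cyp2e1 was highest, to 14.9 to 54.7 CPM in the WD group, with 4 to 6 of the 9 at 0, and to 6.63 to 916 CPM in the batch 1 controls. The part of hepatocyte RNA in the Cyp2e1 levels was not tested. Endothelial, stromal, mesothelial and erythrocyte markers had overlapping summed levels in the batch 1 controls and the WD group.

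The alcohol and aldehyde dehydrogenases had log2 fold changes of -0.74 to 0.51 in batch 1, none past the test. For these and the remaining members, edgeR's quasi-likelihood test over all 12157 genes of batch 1 gave 0 genes with an FDR under 0.05 (0.0%), with 628 genes (5.17%) at an unadjusted p under 0.05 and 114 genes past an FDR of 0.05 in DESeq2. None of the 7 related enzymes passed in edgeR, DESeq2 or limma-voom within batch 1. Their standard errors on the log2 scale, 0.34 to 0.82, set the size of a difference that these libraries could show.

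Adh1, the class I alcohol dehydrogenase of the cytosol, which oxidizes ethanol and retinol, had 178, 162, 329 and 362 CPM in the batch 1 controls. Its WD libraries had 309, 646, 227, 310 and 350 CPM, so the groups overlapped, with WD replicate 2 the highest of the series. Between diets it had a log2 fold change of 0.51 (SE 0.37, edgeR FDR = 1.00), the only positive one among the 8 genes. In the batch 2 controls Adh1 ranged from 234 to 326 CPM with a median of 294 CPM, within the range of the batch 1 controls.

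Aldh2, the mitochondrial dehydrogenase that clears acetaldehyde, had 692, 758, 823 and 918 CPM in the batch 1 controls and 584, 1029, 446, 380 and 473 CPM in the WD group. WD replicate 2 was above every batch 1 control and the other 4 WD libraries were below them. In batch 1 the log2 fold change was -0.47 (SE 0.34, edgeR FDR = 1.00). The batch 2 controls had 989, 985, 685, 788 and 996 CPM, and the log2 fold change of the WD group against them was -0.61 (SE 0.25, edgeR FDR = 0.194).

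Aldh1a1, a cytosolic enzyme that makes retinoic acid from retinaldehyde, had 506, 96.2, 218 and 88.0 CPM in the batch 1 controls and 169, 130, 136, 188 and 100 CPM in the WD group. The value of control replicate 1 was more than that of any other library. Its log2 fold change of -0.74 (SE 0.50, edgeR FDR = 1.00) rested on it, and without that library it was 0.12. Aldh1a7, the paralog, had 27.8 to 122 CPM in the batch 1 controls and 89.9 to 224 CPM in the WD group, and 79.6 CPM in control replicate 1.

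Aldh3a2, the fatty aldehyde dehydrogenase of the endoplasmic reticulum, had 21.3, 13.6, 28.6 and 33.6 CPM in the batch 1 controls. Its WD libraries had 21.2, 8.94, 27.4, 12.4 and 23.9 CPM and its batch 2 controls 12.4 to 29.2 CPM, so all groups overlapped. Between diets in batch 1 the log2 fold change was -0.39 (SE 0.58, edgeR FDR = 1.00).

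Catalase, which breaks down hydrogen peroxide in peroxisomes, had nearly equal means in both diets of batch 1. Cat had 85.8, 289, 495 and 343 CPM in the batch 1 controls and 248, 427, 252, 309 and 250 CPM in the WD group. Between diets the log2 fold change was -0.03 (SE 0.40, edgeR FDR = 1.00), and the sign turned when single libraries were left out. The batch 2 controls had 493.4, 555, 570, 447 and 594 CPM, all above the WD libraries, as for 4.02% of all genes. Against them the WD group was lower by a log2 fold change of -0.84 (SE 0.19, edgeR FDR = 0.013), with batch and diet confounded. Relative to the adipocyte markers, Cat in the WD group overlapped the batch 2 controls, with a log2 difference of 0.20 of the opposite sign.

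The carboxylesterases were nearest to Cyp2e1 among the members in their pattern over the libraries. Ces1d, a triacylglycerol hydrolase of fat and liver, had 11.6, 160, 297 and 35.1 CPM in the batch 1 controls and 72.9, 14.3, 94.1, 56.7 and 49.1 CPM in the WD group. Those groups overlapped, since control replicate 1 lay below and replicate 4 within the range of the WD libraries. In batch 1 the log2 fold change was -1.13 (SE 0.74, edgeR FDR = 1.00), and without control replicates 1 and 4 it was -1.99 (SE 0.49, edgeR FDR = 0.0968). Without control replicate 3, the highest of them, it was -0.27 (edgeR FDR = 0.999), the low end of a range of -1.51 to -0.27 over the single libraries left out. The batch 2 controls had 554, 614, 449, 455 and 183 CPM. Replicate 9, the lowest, was still above every WD library, and 4.02% of all genes had all WD libraries below the batch 2 controls.

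Ces1f, the other esterase gene among the members, had 1.85, 23.8, 44.6 and 45.2 CPM in the batch 1 controls and 26.4, 13.6, 14.6, 10.3 and 3.84 CPM in the WD group. These groups overlapped, with a log2 fold change of -1.05 (SE 0.82, edgeR FDR = 1.00). The batch 2 controls had 103, 134, 59.8, 72.8 and 91.2 CPM, all above the other 9 libraries. Of all genes, 4.02% had every WD library and 4.53% every batch 1 control below the batch 2 controls.

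Against the batch 2 controls alone, 773 of 12070 genes (6.4%) passed an FDR of 0.05 in edgeR's test, 299 of them lower in the WD group (2.48%). Of the 7 related enzymes Ces1d, Ces1f and Cat passed, all lower. For Ces1d the log2 fold change was -2.97 (SE 0.41, edgeR FDR = 0.000294) and for Ces1f -2.74 (SE 0.40, edgeR FDR = 0.00049). On the scale of adipocyte markers these differences were -2.01 for Ces1d, whose groups then overlapped, and -1.75 for Ces1f, whose groups did not. There the WD group was higher by a log2 difference of 1.35 for Adh1 and 0.88 for Aldh1a1, without overlap. For Aldh2 and Aldh3a2 it was higher by 0.37 and 0.94, with overlap. The share of all genes without overlap was not computed on that scale. The markers themselves differed here. In CPM, 11 of the 12 were lower in the WD group, 9 of them with an edgeR FDR under 0.05, and 1 was higher and passed. Their median log2 fold change was -0.94, so a gene of unchanged CPM stands higher on that scale. In CPM, Adh1, Aldh1a1, Aldh2 and Aldh3a2 had 0.37, -0.16, -0.61 and -0.08, with overlap and edgeR FDRs of 0.194 to 0.963. With all 14 libraries and no batch term, 67 of 12653 genes (0.53%) passed and none of the 7 did, with Ces1d at an edgeR FDR of 0.188 and Ces1f at 0.191.

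**Figure D3:**
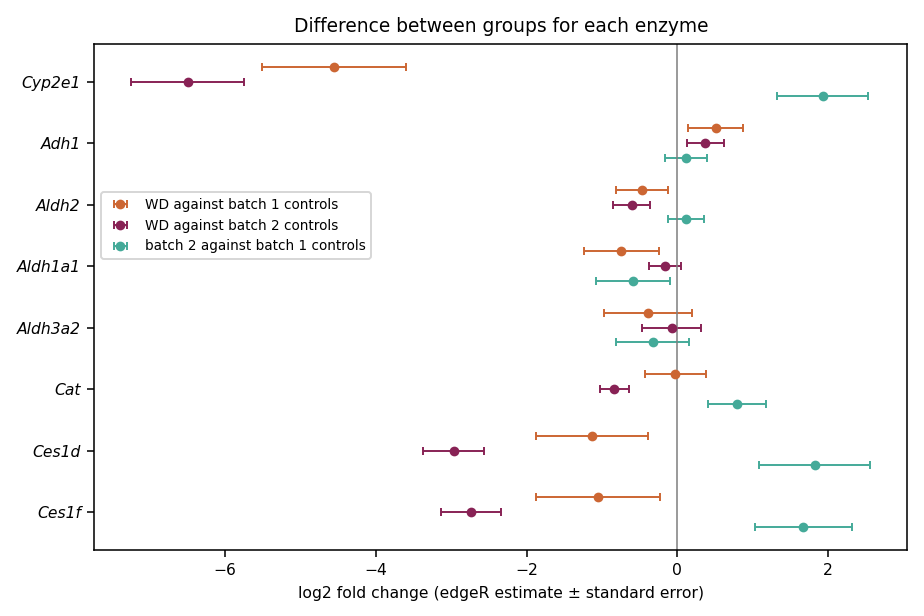
Log2 fold change of each enzyme (edgeR estimate, bars ± standard error) for the WD group against the batch 1 controls, the WD group against the batch 2 controls, and the batch 2 against the batch 1 controls. Cyp2e1, Ces1d and Ces1f lay farthest from 0 in all of these comparisons, which share libraries, and Adh1 stayed between 0.11 and 0.51.

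The control libraries of the 2 batches were then compared. They are 1 arm of the contrast for which Cyp2e1 was chosen, so its values here are a description. Of 12106 genes, 0 passed an FDR of 0.05 in edgeR's test (0.0%), 895 (7.39%) had an unadjusted p under 0.05 and 111 passed in DESeq2. Cyp2e1 had a mean ratio of batch 2 to batch 1 of 3.86 and a log2 fold change of 1.93 (SE 0.61). That value was 1.16 without control replicates 1 and 4 and 2.45 without control replicate 3. For Ces1d the log2 fold change was 1.82 (SE 0.74, edgeR FDR = 0.615), for Ces1f 1.67 (SE 0.64, edgeR FDR = 0.584) and for Cat 0.79 (SE 0.38, edgeR FDR = 0.697). Without control replicates 1 and 4 Ces1d had 0.97 (edgeR FDR = 0.342), and without control replicate 3 it had 2.70 (edgeR FDR = 0.231). The batch 1 controls all lay below the batch 2 controls for Cyp2e1 and Ces1f, as they did for 4.53% of all genes. Adh1 (0.11), Aldh2 (0.12), Aldh1a1 (-0.59) and Aldh3a2 (-0.33) had log2 fold changes with edgeR FDRs of 0.911 to 0.985. All 12 adipocyte markers had a positive log2 fold change in this comparison, where 50.1% of all genes were below 0. The markers had a median of 1.03, and 0 of them passed the FDR. Relative to those markers, the log2 differences of Adh1 and Aldh2 were -1.16 and -1.24.

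Likeness to Cyp2e1 was measured for 7886 genes with a mean of at least 10 CPM as the root mean square difference of log2(CPM + 1), each gene centred on its mean over the 14 libraries. The 8 nearest genes were Fam13a (1.96), Mycl (2.02), Cfd (2.15), Adrb3 (2.17), Gpt2 (2.21), Ces1d (2.22), Cish (2.23) and Agt (2.24), against a median of 3.35 over all genes. Cyp2e1 itself spread by 3.29 about its mean, which is the difference that a gene of constant level would have. The nearest genes still differed from it by a root mean square of 1.96 or more. Ces1f ranked 18 (2.46), Cat 675 (3.00), Aldh2 995 (3.06), Aldh3a2 2209 (3.21), Aldh1a1 3968 (3.36) and Adh1 5390 (3.48). Aldh1a1 and Adh1 thus lay farther from Cyp2e1 than a gene of constant level would.

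Fam13a, a gene of adipocytes, had 58.3 to 419.5 CPM in the batch 1 controls, 27.8 to 83.4 CPM in the WD group and 368 to 550 CPM in the batch 2 controls. Adrb3, the β-adrenergic receptor of fat, had 15.8 to 485 CPM, 22.1 to 174 CPM and 392 to 665.5 CPM in those groups. Cfd, which encodes adipsin, an adipocyte protease of the complement system, had 801 to 8202 CPM, 784 to 2072 CPM and 8343 to 17490 CPM. Gpt2, an alanine aminotransferase of mitochondria, had 24.8 to 109.9 CPM, 12.7 to 25.2 CPM and 101 to 162 CPM. In all 4 the mean was highest in the batch 2 controls and lowest in the WD group. They were picked for likeness to Cyp2e1 over the same libraries, so this order follows from the choice. The WD group and the batch 1 controls overlapped in all 4, and the controls of the 2 batches overlapped in all but Cfd.

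Other genes of the same chemistry were taken from 8 lists holding 115 genes, of which 78 were tested in batch 1 and 0 passed an FDR of 0.05 in edgeR's test. The median log2 fold change was -0.05 over 7 alcohol dehydrogenases and aldehyde reductases, -0.06 over 13 other aldehyde dehydrogenases, 0.20 over 18 genes of peroxide and superoxide handling and 0.08 over 12 P450 partners and other P450s of fat. It was -0.45 over 14 genes of carbonyl reduction and glutathione conjugation, 0.56 over 3 genes of acetate use and 0.10 over 10 genes of retinoid handling, against 0.03 over all genes. Over the 7 enzymes chosen beside Cyp2e1 it was -0.47, with 6 of 7 below 0, as were 48.2% of all genes. Of 17 other carboxylesterases found in the table, 1 passed the filter.

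**Figure D4:**
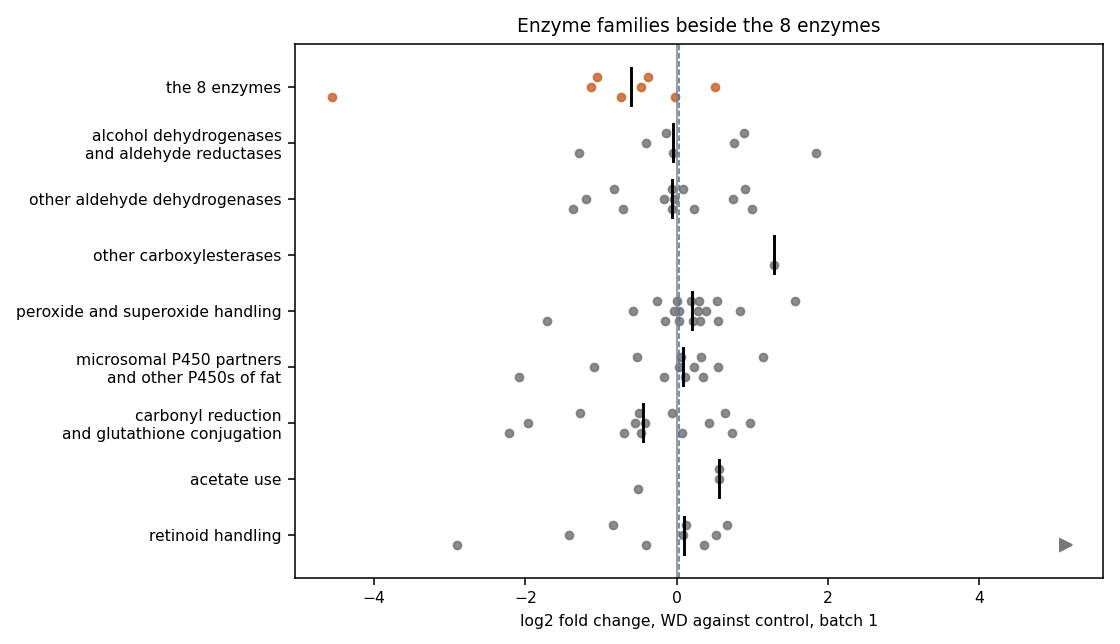
Log2 fold change, WD against control in batch 1, for the 8 enzymes and for 8 lists of related genes; each point is a gene past the filter, the black bar is the median of the list, the dashed line the median of all genes and the triangle the lower bound for Dhrs9. Cyp2e1, at -4.56, lies farther from 0 on the negative side than any listed gene that passed the filter in this comparison. The medians of the lists of related genes lie between -0.45 and 0.56 apart from the lone carboxylesterase, and the median of the 8 enzymes is -0.61.

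Por, which passes electrons to CYP2E1 and the other microsomal P450s, had 56.6, 320, 357 and 133 CPM in the batch 1 controls and 237, 196, 190, 127 and 215 CPM in the WD group. Within batch 1 it had a log2 fold change of -0.17 (SE 0.44, edgeR FDR = 1.00). In the batch 2 controls it had 555.5, 594, 407.5, 485 and 579 CPM, and against these the WD group was lower by a log2 fold change of -1.44 (SE 0.20, edgeR FDR = 0.000273). Por was singled out after its values were seen.

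Among the other aldehyde dehydrogenases, Aldh6a1, which handles methylmalonate semialdehyde in valine breakdown, averaged 123 ± 45.2 CPM (SD, n = 4) in batch 1 controls, 53.3 ± 23.3 CPM (SD, n = 5) in WD mice and 189 ± 79.1 CPM (SD, n = 5) in batch 2 controls. Between the diets of batch 1 it had a log2 fold change of -1.21 (SE 0.44, edgeR FDR = 0.680). Aldh9a1 had a log2 fold change of 1.00 and Aldh7a1 of -0.83, both with an edgeR FDR of 1.00. Of the aldehyde reductases, Akr1b10 had 1.84, Akr7a5 -1.30 and Akr1b8 0.89 as log2 fold changes, again with edgeR FDRs of 1.00.

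Gpx3, the glutathione peroxidase secreted into plasma, averaged 586 ± 264 CPM (SD, n = 4) in batch 1 controls, 184 ± 103 CPM (SD, n = 5) in WD mice and 407 ± 168 CPM (SD, n = 5) in batch 2 controls. Within batch 1 the log2 fold change was -1.71 (SE 0.48, edgeR FDR = 0.478), and without control replicates 1 and 4 it was -2.01 (SE 0.43, edgeR FDR = 0.049). That setting left only control replicates 2 and 3, of which replicate 2 held hepatocyte RNA, and 0.796% of all genes passed under it. Prdx5 and Gpx4 had log2 fold changes of 1.56 and 0.84 in batch 1, with edgeR FDRs of 0.557 and 1.00.

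Gsta3, a glutathione S-transferase, averaged 65.2 ± 25.1 CPM (SD, n = 4) in batch 1 controls, 27.1 ± 8.22 CPM (SD, n = 5) in WD mice and 134 ± 28.98 CPM (SD, n = 5) in batch 2 controls. Its WD libraries, at 18.5 to 38.5 CPM, all lay below its batch 1 controls, at 42.7 to 90.5 CPM, as for 0.789% of all genes. In batch 1 it had a log2 fold change of -1.28 (SE 0.40, edgeR FDR = 0.546), and over all 14 libraries without a batch term, where 0.53% of all genes passed, of -1.94 (SE 0.35, edgeR FDR = 0.0112). With batch as a covariate it had -1.29 and did not pass (edgeR FDR = 0.119). Mgst3 and Gsta4 had -2.22 and -1.96 in batch 1 with edgeR FDRs of 1.00 and controls that included a library at 0.

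Dhrs9, a dehydrogenase of the endoplasmic reticulum that acts on retinol, had 0 counts in all 4 batch 1 controls and 91, 141, 188, 37 and 166 counts in the WD libraries. Its mean of 10.4 CPM in the WD group was at least 35.6-fold higher than the 3 counts that a control library could have missed, taken at the highest of those floors. In the batch 2 controls it had 0, 0, 5, 3 and 0 counts. The edgeR FDR was 0.434 in batch 1. It was 0.0192 over all 14 libraries without a batch term, where 0.53% of all genes passed, but 0.116 with batch as a covariate. Without control replicates 1 and 4 of batch 1, which left only control replicates 2 and 3, it was 0.049 by edgeR, and 0.796% of all genes passed. With Dhrs9 at its bound, the median of the retinoid list was the same 0.10. For Rdh11 the log2 fold change in batch 1 was -2.91, with an edgeR FDR of 1.00.

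Of the other P450s, Cyp26b1, which degrades retinoic acid, had a log2 fold change of -2.09, Cyp4v3 of 1.14 and Cyp4f13 of -1.10, with edgeR FDRs of 1.00, 0.585 and 1.00. Without control replicates 1 and 4, where 0.796% of all genes passed, 3 genes of the lists passed, Cyp2f2, Gpx3 and Dhrs9. Cyp2f2, a P450 not past the filter with all batch 1 controls, had -10.9 there (SE 1.77, edgeR FDR = 0.0283). Its levels are not given here, and no bound was set on that fold change as for Dhrs9. The setting kept only control replicates 2 and 3, and the hepatocyte markers summed to 916 CPM in replicate 2. All 7 hepatocyte markers tested there were lower in the WD group, with a median of -4.96, and Alb passed. The part of hepatocyte RNA in the Cyp2f2 difference was not tested. The acetate enzymes Acss1 and Acss2, which make acetyl-CoA from acetate, had 0.56 and -0.51 with edgeR FDRs of 1.00. Against the batch 2 controls, 11 of 78 tested genes of the lists passed in edgeR's test, 8 lower and 3 higher, beside 6.4% of all genes. The lower ones were Adhfe1, Aldh6a1, Por, Gsta3, Gstz1, Mgst1, Mgst2 and Rbp4, and the higher ones Akr1b8, Cyb5r3 and Dhrs9.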

How the data were processed

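The series measured eWAT RNA of 14 mice by QuantSeq. The authors sequenced single-end reads of 75 bases, aligned them with Bowtie2 to mm10 per the submitters' processing notes, and deposited counts of unique and multiple alignments per gene, made with bedtools and not normalized. The authors also deposited log2 values after TMM and CPM normalization in edgeR, which were not tested here. No molecular identifiers were mentioned, so copies made by PCR count as reads, and totals of 10278970 to 13712254 counts per library limit counting error only.

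Groups came from the labels. Counts were fitted with edgeR 4.0.16 (quasi-likelihood test, TMM, filterByExpr, Benjamini-Hochberg FDR over all genes tested) without covariates. DESeq2 1.42.0, limma 3.58.1, other scalings, filters and sets of libraries were alternatives, and levels relative to adipocyte markers were added after the data were seen. The scripts were tested on simulated data. Levels are TMM CPM over all 14 libraries. The p-values measure the spread between the animals of a group.

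The members and lists were chosen with earlier results of these data known. By rule, the genes named are the 8 enzymes, the 3 genes per list with the largest log2 fold change in size in batch 1 among those with a mean of at least 5 CPM, and the 8 genes most like Cyp2e1 and Aldh1a7, a paralog that shares sequence with Aldh1a1; 1 gene named by the rule is not reported here. Por, Adhfe1, Gstz1, Mgst1, Mgst2, Rbp4, Cyb5r3 and Cyp2f2 fall outside the rule and were named after their values were seen. Promoters came from RefSeq (GRCm38.p6) and transcripts from GENCODE M21. Protein sequences were not used here.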

Additional observations from a re-analysis of the deposited data

Results flagged for a closer look

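Of 24 sets of libraries, 8 genes in 3 groups, 2 held a library far from the others by Dixon's criterion, where chance gives about 1.2. Ces1d in control replicate 9 of batch 2 had a log2(CPM + 1) of 7.52, against 8.81 to 9.26 in the other batch 2 controls, while its Cyp2e1 level of 2188 CPM was the second highest of all libraries. Aldh1a1 in control replicate 6 of batch 2 had a log2(CPM + 1) of 6.80, against 7.34 to 7.55 in the others, while its Cyp2e1, Ces1d and Ces1f levels were the highest of all 14 libraries.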

How the results depend on the processing

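The log2 fold change of Cyp2e1 between diets was negative under every alternative, from -5.86 (without WD replicate 5) to -4.05 (without control replicate 3) with single libraries left out and at -6.50 against the batch 2 controls only. The number of genes with an FDR under 0.05 in batch 1 was 0 in edgeR and 0 to 48 with single libraries left out, where 48 came without control replicate 4. It was 114 in DESeq2, 43 in limma-voom with sample quality weights, 108 without control replicates 1 and 4, 67 with all 14 libraries, 1 with batch as a covariate and 773 against the batch 2 controls, which alone brought 3 of the 7 related enzymes past it. For the batch 2 against the batch 1 controls it was 0, and 111 in DESeq2, 28 without control replicates 1 and 4, and 0 to 2 with single libraries left out. The causes of these differences were not tested.

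Same-numbered control and WD libraries of batch 1 had correlations of deviations of -0.0134, 0.0438, 0.054 and 0.0788. Differently numbered ones ranged from -0.0878 to 0.1183. No sign of pairing by number was seen, though so few pairs cannot exclude it. With the replicate number as a block, 0 genes passed, Cyp2e1 had -5.62, Ces1d -0.47 and Ces1f -0.57, while the signs of Cat (0.22), Cyp4f13 (0.22) and Acss2 (0.67) turned.

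Other signs turned where the fold change was small. With single libraries left out, Cat ran from -0.32 to 0.30 (above 0 without control replicates 3 or 4 or WD replicates 1, 3 or 5), Aldh1a1 from -1.04 to 0.12 (above 0 without control replicate 1), Cyp4f13 from -1.51 to 0.10 and Acss2 from -0.91 to 1.21 (both above 0 without control replicate 4). Between the controls of the batches, Adh1 ran from -0.052 to 0.32 (below 0 without replicate 2) and Aldh1a1 from -0.83 to 0.27 (above 0 without replicate 1), and Aldh1a1 had 0.037 without replicates 1 and 4. Against the batch 2 controls Aldh9a1 had -0.20 and Cyp4f13 0.37. In limma-voom Cyp4f13 had 0.14 and Acss2 0.62, and without control replicates 1 and 4 Acss2 had 0.71. On the scale of adipocyte markers, Adh1, Aldh2 and Cat between the controls had -1.16, -1.24 and -0.34.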
